A study of Mus musculus with 11 samples.

Results

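Tuft cells of the mouse colonic mucosa were examined by single-cell RNA sequencing of uninjured and inflamed colons. The members are the cells that the authors' deposited cell table names as epithelial tuft cells. There were 146 of them among 55603 cells in 11 libraries, beside 12311 other epithelial cells of 7 named types. How the authors assigned the names is not given in the sources used here. Such names rest on the expression of the same genes, so differences between tuft cells and other epithelial cells are given as a description, with no test.

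Tuft cells are rare chemosensory cells of the gut lining that carry a brush of stiff microvilli. They sense luminal metabolites through the signalling chain that taste receptor cells use, in which a G protein activates a phospholipase and calcium opens the cation channel TRPM5. The transcription factor POU2F3 is required for their formation. In the small intestine of mice they are the main source of the cytokine IL-25, which acts on type 2 innate lymphoid cells, and they also make leukotrienes, prostaglandins and acetylcholine.

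One library came from Il10-/- mice about 10 months old, which lack the anti-inflammatory cytokine IL-10 and develop colitis without a chemical. The other inflamed libraries came from wild-type (WT) mice about 2 months old that received 3% dextran sulfate sodium (DSS), a polymer that injures the colonic epithelium, for 6 days. They were taken on 9 days, 1 library a day, at days 6, 7 and 9, then days 11 and 12, and then days 16, 18, 19 and 23. The uninjured library came from WT mice about 2 months old that received no DSS. Libraries of days 7, 11 and 18 are labelled as batch C, and the authors list their cells as fresh and pooled from 3 mice. The others have no such label in their sample records and are listed as frozen cells pooled from 8 mice, so batch, storage and number of mice cannot be told apart. In Il10-/- mice, genotype and age cannot be told apart either.

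Libraries held 7963048 to 87491138 unique molecular identifiers (UMIs, each standing for 1 captured RNA molecule). The tuft cells held 40466 to 362059 UMIs a library in the 10 libraries that had any. A tuft cell had a median of 8749 UMIs and 2645 genes, against 6022 UMIs and 1594 genes in the other epithelial cells, and 16.8% against 17.0% of UMIs were mitochondrial. Levels are in CPM, the UMIs of a gene in the summed cells scaled so that all genes sum to the same total in each group of cells. Of the tuft cells, 5 shared a barcode sequence with a cell of another library, and none with another tuft cell.

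Some barcodes named tuft also held many UMIs of another cell type's markers. With at least 50 UMIs and 0.5% of UMIs from the marker list of another type, 15 of 146 tuft barcodes met a rule for mixed barcodes that was set after the data were seen. Colonocyte markers met it in 8 of them and neutrophil markers in 6, with 1 each for goblet, enteroendocrine, fibroblast and macrophage markers. They were 6 of the 14 tuft cells of batch C, with 74.5% of their UMIs, and 9 of the 132 others, with 15.0%. One barcode of day 18 held 353 fibroblast and 553 neutrophil UMIs beside 3 UMIs of the tuft markers Dclk1, Trpm5 and Il25. Whether these barcodes are doublets, free RNA or cells of an unusual kind was not tested. The main values that rest on them are given with and without them.

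**Figure D1:**
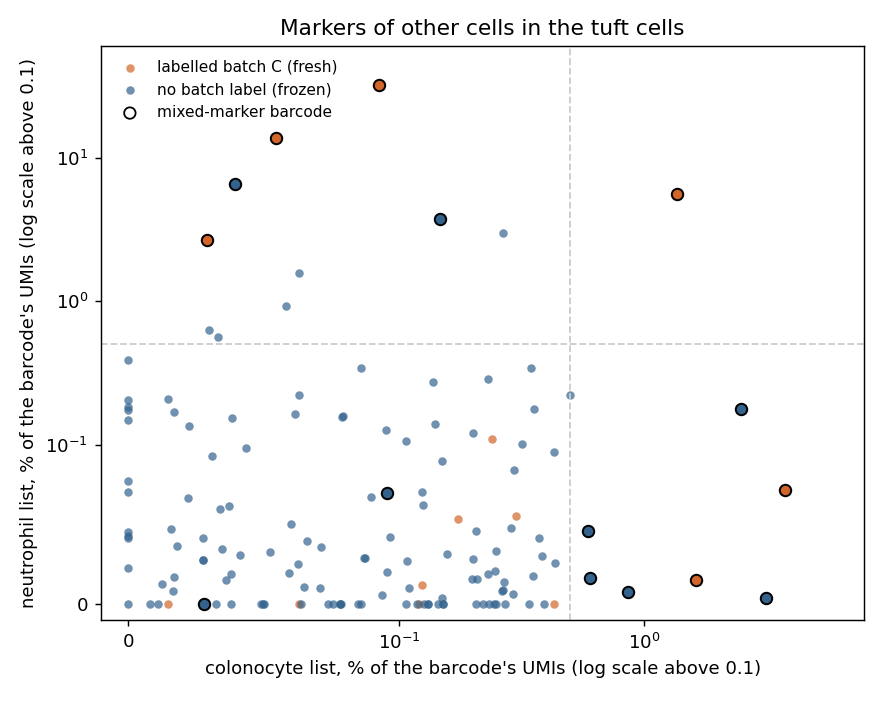
Percent of each tuft barcode's UMIs from the colonocyte list (x axis) and the neutrophil list (y axis), 1 point a cell, on scales that are logarithmic above 0.1%, with dashed lines at 0.5% and ringed points for the 15 mixed barcodes. Day 7 barcodes with 3047, 4565 and 13192 neutrophil UMIs are among the ringed points above the horizontal line, and both batch C (orange) and the other libraries (blue) hold ringed points.

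The name fitted the markers. Dclk1, which codes for a kinase of microtubules and is the usual colonic tuft marker, was detected in 137 of 146 tuft cells (93.8%). It was detected in 0.877% of other epithelial cells, while 42.7% of 7731 fibroblasts, with a median of 5885 UMIs, also had a UMI of it. Its level was 1199 CPM in tuft cells and 1.37 CPM in other epithelial cells. Trpm5 was detected in 136 tuft cells (93.2%), against 0.154% of other epithelial cells and 0.116% of fibroblasts. Il25, the cytokine gene, had 62 UMIs in 33 tuft cells (22.6%) and none in 12311 other epithelial cells. With 3 cells put in place of 0, the share of cells with a UMI would be 0.0244%. Of 7 tuft genes (Dclk1, Trpm5, Pou2f3, Avil, Sh2d6, Rgs13 and Ltc4s), at least 5 were detected in 130 of 146 cells and all 7 in 72 cells. At most 2 were detected in 4 cells.

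By the annotation of mm10, Dclk1 lies at chr3:55242364-55539068, Trpm5 at chr7:143069153-143094642, Il25 at chr14:54932695-54935837 and Pou2f3 at chr9:43123939-43210369. Dclk1 stood at 1225 CPM in Il10-/- tuft cells and 1156 CPM in uninjured ones. Over DSS days 6, 7, 9 and 12 it stood at 1296, 884, 1292 and 1184 CPM. On days 16, 18, 19 and 23 it stood at 1420, 587, 1413 and 1431 CPM. The 2 low values are those of batch C, where mixed barcodes hold most of the UMIs. Without mixed barcodes Dclk1 stood at 2315 CPM on day 7 and 1057 CPM on day 18, in 5 and 3 cells.

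Tuft cells were a small share of the epithelium in every library, and no relation of the share with day was detected. They were 18 of 764 epithelial cells in Il10-/- mice (2.36%, exact 95% interval 1.40 to 3.70) and 16 of 734 in uninjured mice (2.18%, 1.25 to 3.52). In DSS libraries with no batch label they were 14 of 315 on day 6 (4.44%, 2.45 to 7.34), 3 of 380 on day 9 (0.789%, 0.163 to 2.29) and 9 of 378 on day 12 (2.38%, 1.09 to 4.47). They were 24 of 523 on day 16 (4.59%, 2.96 to 6.75), 16 of 582 on day 19 (2.75%, 1.58 to 4.43) and 32 of 798 on day 23 (4.01%, 2.76 to 5.61). These shares put days 6, 16 and 23 highest and day 9 lowest.

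The 3 libraries of batch C lay below every other library. They held 9 of 1754 on day 7 (0.513%, 0.235 to 0.972), 0 of 1846 on day 11, which allows a share of up to 0.163%, and 5 of 4383 on day 18 (0.114%, 0.0371 to 0.266). The intervals cover counting error only. Batch C libraries held more epithelial cells than the others, so the share also moves with how many other epithelial cells were recovered. Fewer tuft cells and the batch cannot be told apart as the source of these low shares. Against day, Spearman's rho was 0.15 over the 9 DSS libraries (2-sided exact permutation p = 0.708) and Pearson's r was 0.255 (exact permutation p = 0.496). Over the 6 DSS libraries with no batch label, rho was 0.143 (exact permutation p = 0.803) and r was 0.247 (exact permutation p = 0.642). With all cells as the denominator rho was 0.317 (exact permutation p = 0.410) and r was 0.490 (exact permutation p = 0.18). Adjusted over the 2 denominators, the p-values for rho were both 0.708, and those for r were 0.496 and 0.360. Without days 19 and 23, the 2 days farthest from the median, rho was -0.107 and r was -0.0636, so the sign of the relation rested on those libraries.

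**Figure D2:**
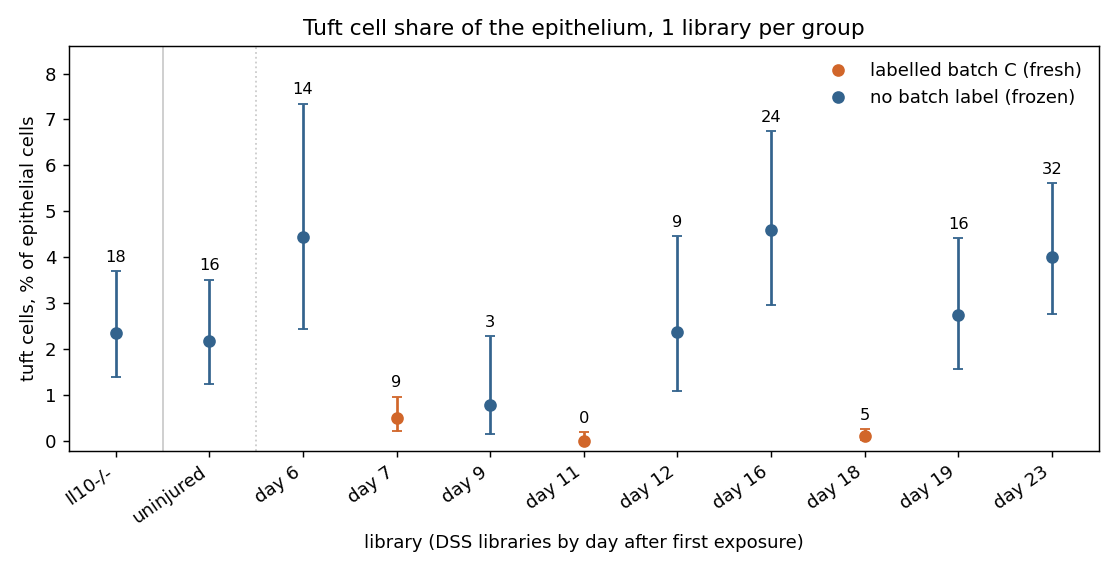
Tuft cells as a percent of epithelial cells in each library, with exact 95% binomial intervals, Il10-/- and uninjured first and then DSS by day. Points of batch C (days 7, 11 and 18) lie at 0 to 0.513%, below the 0.789% to 4.59% of the other libraries.

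Set against the other epithelial cells of the same libraries, tuft cells differed in many genes. A gene was compared where it had at least 20 UMIs in tuft cells, or that many in other epithelial cells after scaling to the depth of the tuft sum, and 7877 genes met this. Of these, 416 were at least 4-fold higher in tuft cells (5.28% of genes compared) and 287 at least 4-fold lower (3.64%). Without mixed barcodes 389 of 6746 genes were higher and 539 lower. With equal weight for each of the 9 libraries with at least 5 tuft cells, 524 of 7862 genes were higher and 314 lower. Trim38 was then 716-fold higher in place of 4310-fold, and Ptprc 13.3-fold in place of 7.12-fold. A gene high in tuft cells could enter through its tuft UMIs alone, so counts of list members are a description. The 25 highest, among genes found in at least 25% of tuft cells, are named here by ratio. They were Trim38, Hmx3, Fabp1, Rgs13, Gnat3, Folr1, Crisp3, Ly6g6f, Sh2d7, Chat, Hmx2, Trpm5, Pou2f3, Dnah5, Matk, Ffar3, Nrgn, Dclk1, Sh2d6, Ltc4s, Mlip, Gng13, Nebl, Tspan6 and Spib. The 10 lowest were Clca1, Zg16, Fcgbp, Sval1, Tff3, Muc2, Car4, Spink4, Agr2 and Clca4b, most of them products of goblet cells.

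Transcription factors led the identity list, on which 6 of 7 genes compared were at least 4-fold higher. Pou2f3 stood at 97.2 CPM in tuft cells and 0.0649 CPM in other epithelial cells. Hmx2, a homeobox factor, stood at 235 against 0.123 CPM. Spib, an ETS family factor also found in lymphoid cells, stood at 249.7 against 0.856 CPM, and Gfi1b, a zinc finger repressor, at 25.4 against 0.0649 CPM. Sox9, which crypt cells also use, differed less, with 359.7 against 81.5 CPM, and Runx1 was 3.19-fold higher.

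The taste-type chain was present in parts. Of 10 genes compared, 7 were at least 4-fold higher in tuft cells. Gnat3, the gustducin alpha subunit, stood at 136 CPM in tuft cells and 0.0519 CPM in other epithelial cells. Plcb2, the phospholipase, stood at 54.6 against 0.396 CPM, and Gng13, a G protein gamma subunit, at 191 against 0.331 CPM. Rgs13, a regulator of G protein signalling, stood at 923 against 0.279 CPM, and Ffar3, a receptor for short-chain fatty acids, at 101 against 0.104 CPM. Itpr3, the calcium release channel of taste cells, went the other way with 26.1 against 62.0 CPM, and the TRPM5 relative Trpm4 did so with 25.4 against 53.1 CPM. Other members were hardly seen. The receptor genes Tas1r1 and Vmn2r26, the regulator Rgs21 and the beta subunit Gnb3 had 0 UMIs in the 146 cells, Tas1r3 had 3, and the succinate receptor Sucnr1 had 7 UMIs in tuft cells and none elsewhere in the epithelium.

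The lipid mediator list was also split. Ltc4s, the leukotriene C4 synthase, stood at 899 CPM in tuft cells and 1.24 CPM in other epithelial cells. Alox5, the 5-lipoxygenase, stood at 253.6 against 1.81 CPM, and its partner Alox5ap at 802 against 48.6 CPM. Ptgs1, the cyclooxygenase COX-1, stood at 192 against 0.915 CPM, and Hpgds, which makes prostaglandin D2, at 229 against 10.2 CPM. These 5 of the 9 genes compared were at least 4-fold higher, while Ptgs2 (COX-2), Pla2g4a, Hpgd and Ptges3 stood within 0.938 to 1.40 times the level of other epithelial cells. Chat, which makes acetylcholine, stood at 78.2 against 0.0389 CPM. The other cholinergic genes were at or near 0, with 0 UMIs of the choline transporter Slc5a7 and of the esterase Ache in tuft cells.

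Among type 2 genes, Il17rb, a subunit of the IL-25 receptor, stood at 47.0 CPM in tuft cells and 0.694 CPM in other epithelial cells. The IL-13 receptor subunit Il13ra1 was 5.06-fold higher and Il4ra 2.46-fold higher. Il33, the decoy receptor Il13ra2 and Il1rl1 had 0 UMIs in tuft cells, and Tslp had 3. All 16 genes of the immune surface and signalling list were at least 4-fold higher, with a median ratio of 48.9. Cd24a, a surface sialoglycoprotein, was detected in all 146 tuft cells at 5851 against 129 CPM. Ptprc, which codes for the pan-leukocyte antigen CD45, stood at 254.8 against 35.8 CPM, and Siglecf, a sialic acid lectin of eosinophils, at 96.6 against 0.662 CPM. Kit was 15.6-fold higher, while the mast cell and basophil genes Cpa3, Tpsb2, Ms4a2 and Mcpt8 had 0 UMIs in tuft cells.

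The brush and cytoskeleton list had 7 of 11 genes at least 4-fold higher. Avil, coding for the actin bundler advillin, stood at 403.5 CPM in tuft cells and 1.66 CPM in other epithelial cells, and Krt18 at 4786 against 659.7 CPM. Villin (Vil1) was 1.34-fold higher, and Ezr, coding for ezrin of the enterocyte brush border, stood at 245 against 556 CPM. Goblet, colonocyte and proliferation genes were mostly lower. All 8 goblet genes were at least 4-fold lower, as were 6 of 10 colonocyte and 6 of 11 proliferation genes compared. Markers of some other cell types were not lower. Median ratios were 2.20 for the 7 neutrophil, 1.82 for 2 macrophage and 1.27 for 6 fibroblast genes compared. Of 6 enteroendocrine genes, 1 was at least 4-fold higher and 3 lower. These values include the mixed barcodes, and gene ratios of these lists without them are not given here. A mixed barcode of day 7 held 13192 of the 23055 neutrophil UMIs, and another held 564 of the 617 enteroendocrine UMIs. A mixed barcode of day 18 held 353 of the 495 fibroblast UMIs. Mki67, a marker of cycling cells, was detected in 4.79% of tuft cells and 12.2% of other epithelial cells.

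**Figure D3:**
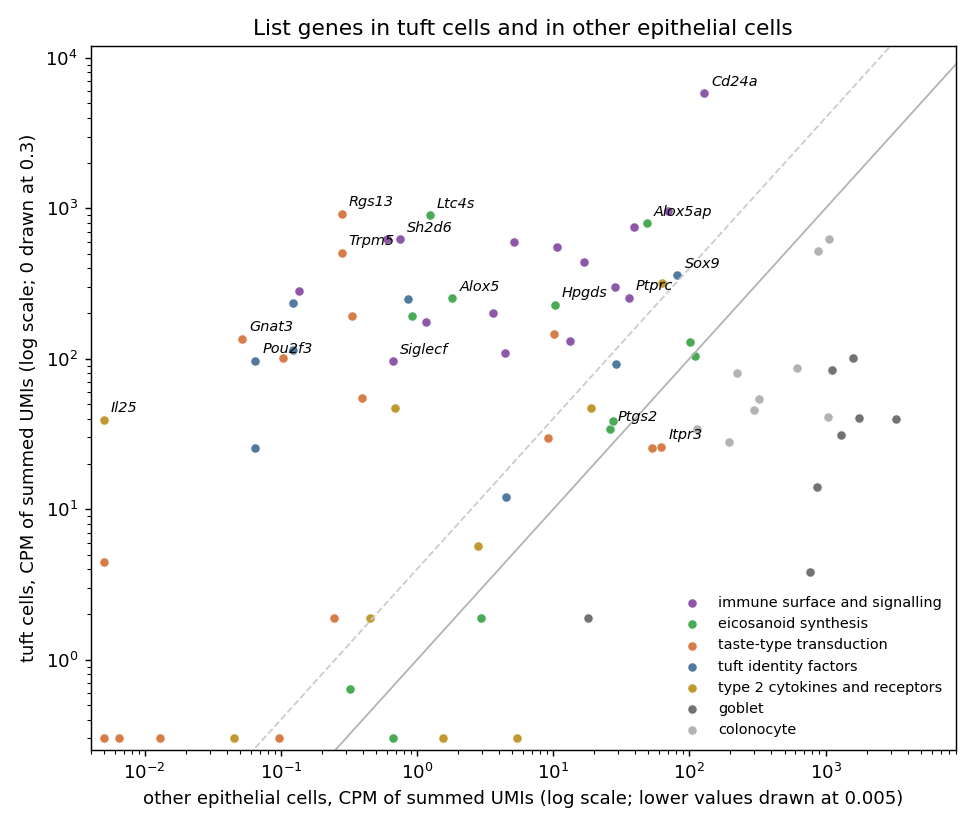
Level of each list gene in tuft cells (y axis, CPM, log scale) against other epithelial cells (x axis, CPM, log scale), 1 point a gene, coloured by list, with genes at 0 drawn at the edge. The solid line marks equal levels and the dashed line 4-fold higher in tuft cells. Immune surface genes lie above the dashed line and goblet and colonocyte genes below the solid one.

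Promoter windows are shown for 3 of the highest genes because POU factors, the family of POU2F3, are known to bind the octamer ATGCAAAT. The windows are the 250 bases before the start, from RefSeq on GRCm38.p6, and the table matched 23 of the 25 highest genes with 31 windows. The octamer, on either strand (reverse ATTTGCAT), was found in 0 of those 31 windows and in 526 of 32851 windows of all genes (1.6%). Its first 7 letters, ATGCAAA or TTTGCAT on the opposite strand, were found in 2 of 31 windows (6.45%) and in 1355 of all windows (4.12%), and each full octamer also holds them. The 2 windows are those of Ffar3 at chr7:30856179-30856428, 136 bases before the start, and Crisp3 at chr17:40242289-40242538, 72 bases before the start. Trpm5 at chr7:143094643-143094892 had no match and is shown for comparison. All 3 lie on the minus strand and are written 5' to 3' along the gene, with the 7-letter match in capitals.
Ffar3: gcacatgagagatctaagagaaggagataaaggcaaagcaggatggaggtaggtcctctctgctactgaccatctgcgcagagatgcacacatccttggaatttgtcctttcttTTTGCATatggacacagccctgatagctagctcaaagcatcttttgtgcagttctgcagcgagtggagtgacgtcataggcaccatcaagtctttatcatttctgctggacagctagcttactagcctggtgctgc
Crisp3: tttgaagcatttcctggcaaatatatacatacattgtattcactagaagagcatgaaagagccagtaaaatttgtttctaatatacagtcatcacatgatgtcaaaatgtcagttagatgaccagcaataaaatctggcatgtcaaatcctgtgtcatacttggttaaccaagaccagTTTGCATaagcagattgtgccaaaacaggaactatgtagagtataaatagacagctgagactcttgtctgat
Trpm5: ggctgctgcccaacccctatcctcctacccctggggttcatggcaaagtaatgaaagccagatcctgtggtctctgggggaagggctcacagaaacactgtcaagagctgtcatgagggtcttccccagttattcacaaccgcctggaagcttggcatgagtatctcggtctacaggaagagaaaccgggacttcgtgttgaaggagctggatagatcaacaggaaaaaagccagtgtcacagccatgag
A match is a description of letters. It does not show binding.

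Single tuft cells were described over all libraries together. Genes reported for a neuronal-type (tuft-1) and an immune-type (tuft-2) state in the small intestine of mice were looked up in cells thinned to 3000 UMIs, which left out 29 shallower cells and kept 117. Both lists had a UMI in 85 cells, tuft-2 alone in 26, tuft-1 alone in 4 and neither in 2. Ptprc of the tuft-2 list was found in 15 of 38 cells with a UMI of the tuft-1 gene Gng13 (39.5%) and in 44 of 79 cells without one (55.7%). Without thinning the shares were 72.7% and 68.1%, at median depths of 11486 and 6169 UMIs. Cd300lf, a lipid-binding receptor of myeloid cells, was found in 8 of 38 thinned cells with Gng13 (21.1%) and in 30 of 79 without it (38.0%). Ptprc was found in 60.9% of thinned cells with a UMI of Chat and in 47.9% of those without one. Ptprc was also found in 12.3% of other epithelial cells, unthinned. These cells come from 10 libraries whose tuft-1 and tuft-2 levels differ, so the shares do not show how cells of one library vary, and no test was made on cells.

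The summed tuft-1 list stood highest on day 12. Its genes summed to 1973 CPM in the 9 tuft cells of that library, against 585 CPM in uninjured mice and 333 to 770 CPM in the remaining libraries. Gng13 alone reached 1203 CPM there, with 64 UMIs in 8 of 9 cells. Siglecf, Ffar3 and Cd300lf had 0 UMIs on day 12, and the tuft-2 list summed to 1127 CPM, near the 1093 CPM of day 18 and below the 2088 to 2946 CPM of the others. The day 12 library had 53540 tuft UMIs and no barcode past the rule for mixed ones. Enteroendocrine markers stood at 714 CPM there, against 7.32 CPM in uninjured mice, with 36 of 38 UMIs in 1 cell. Without that cell Gng13 stood at 1009 CPM and the tuft-1 list at 1825 CPM. Crypt stem and cycling markers were also highest on day 12, at 733 CPM against 278 CPM in uninjured mice, and their part was not tested. The 1 tuft cell of day 9 that was not a mixed barcode had 2108 CPM of the tuft-1 list.

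**Figure D4:**
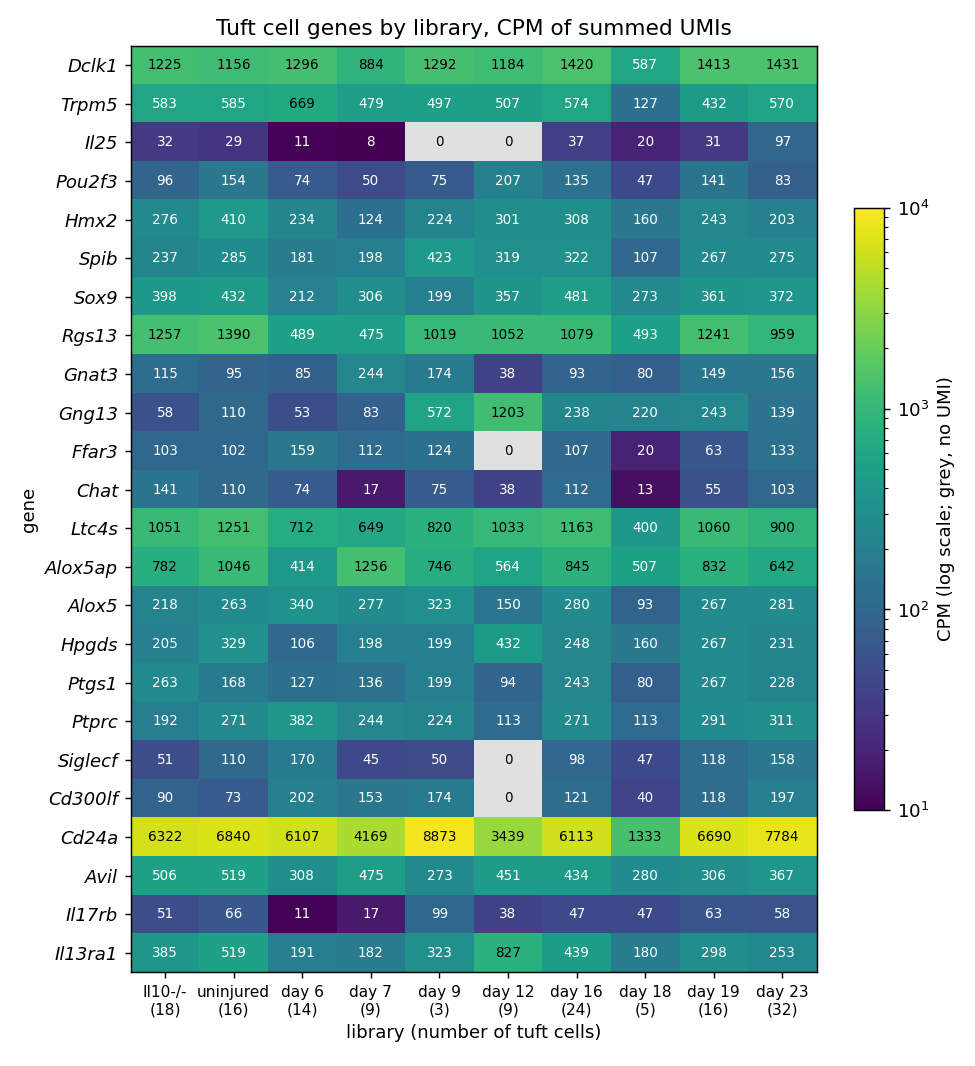
Level of 24 tuft genes (rows) in the tuft cells of each library (columns, number of tuft cells in brackets), as CPM of summed UMIs on a logarithmic colour scale, grey where no UMI was counted. Gng13 reaches 1203 CPM on day 12, where Ffar3, Siglecf and Cd300lf are grey, and day 18 has the lowest Dclk1 at 587 CPM and the lowest Cd24a at 1333 CPM.

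The inflamed libraries were next set against the uninjured one. Each condition has 1 library, so there is no test. DSS days were pooled into days 6 to 12 (35 tuft cells) and days 16 to 23 (77 cells), and these pools and Il10-/- (18 cells) were each compared with the same 16 uninjured cells, which held 136703 UMIs. The 3 comparisons therefore share their uninjured cells. A gene was compared where either side had at least 20 UMIs. The uninjured sum is the shallowest, so ratios of genes with few UMIs there are the least certain and can come out high. Intervals are exact 95% intervals of the ratio and cover counting error only. Where uninjured cells had 0 UMIs, the ratio was taken against 3 UMIs in that library. Such a ratio leaves out counting error in the pool, and its lower 95% limit is lower.

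Il10-/- tuft cells carried more RNA of antigen presentation genes. B2m, the light chain of MHC class I, stood at 1885 CPM in Il10-/- tuft cells (294 UMIs in 15 of 18 cells) and 198 CPM in uninjured ones (27 UMIs), a ratio of 9.54 (6.43 to 14.7). Across DSS days 6, 7, 9 and 12 it stood at 595, 314, 1466 and 207 CPM, and on days 16, 18, 19 and 23 at 481, 407, 762 and 659 CPM. The Il10-/- level was thus above that of each DSS library and the uninjured level below each. Without mixed barcodes Il10-/- stood at 1839 CPM and DSS libraries at 95.8 to 629.8 CPM, with days 9 and 18 below the uninjured level. Other epithelial cells moved alike, with 2794 CPM in Il10-/- and 379 CPM in uninjured mice.

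H2-Ab1, an MHC class II chain, stood at 218 CPM in Il10-/- tuft cells and 7.32 CPM in uninjured ones (34 UMIs against 1, ratio 29.8, 5.0 to 1211). Cd74, the class II invariant chain, stood at 333 against 43.9 CPM (ratio 7.6, 3.26 to 21.6), and H2-Aa at 186 against 21.9 CPM. H2-Q7, a class Ib gene, had 29 UMIs in Il10-/- tuft cells and 0 in uninjured ones, a ratio of 8.47 against 3 UMIs (lower limit 6.46). H2-K1 was 2.61-fold higher (1.91 to 3.63). The class II level stayed far below that of other epithelial cells of the same library, which had 1359 CPM of H2-Ab1. Over all genes, 113 had an interval above 1 and 90 below. At least 4-fold higher were 17 of the 1161 genes compared (1.46%) and 0.172% were at least 4-fold lower, with a median ratio of 1.0. The 3 class II genes named here had fewer than 20 UMIs in uninjured cells and were compared through their Il10-/- UMIs. Without the 1 mixed barcode the B2m ratio was 9.31.

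Class II levels also varied among the DSS libraries. The summed class II list stood at 872 CPM in Il10-/- tuft cells and 80.5 CPM in uninjured ones. It stood at 350.5, 24.8, 398 and 413 CPM on days 6, 7, 9 and 12, and at 420.3, 33.3, 958 and 217 CPM on days 16, 18, 19 and 23. Day 19 was above Il10-/-, also for H2-Aa at 219.9 CPM, but 1 cell held 75.4% of its class II UMIs. Without mixed barcodes day 19 stood at 265 CPM and Il10-/- at 898 CPM, which was then the highest library. In Il10-/- tuft cells 1 cell held 32.4% of the class II UMIs.

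Tuft identity genes differed little in Il10-/- mice. None of 5 identity genes, 14 immune surface genes or 5 eicosanoid genes compared was 4-fold higher or lower, with median ratios of 0.83, 1.03 and 0.83. Rgs13 stood at 1257 CPM in Il10-/- and 1390 CPM in uninjured tuft cells. The other genes among the 8 highest were Xist, Iglc1, S100a8 and the hexokinase gene Hk2. Xist, the RNA of the inactive X chromosome of female cells, had 101 UMIs in 7 of 18 Il10-/- tuft cells and 0 in uninjured tuft cells, against 219.6 and 0 CPM in other epithelial cells. The sex of the pooled mice, genotype and age cannot be told apart in this comparison. Iglc1, an immunoglobulin light chain of plasma cells, had 45 UMIs in Il10-/- tuft cells against 0, and the neutrophil gene S100a8 had 38 against 0. The 8 lowest genes were Atp6v0d1, Tmem50a, Pa2g4, Cited2, Lims1, Ctsc, Gsk3b and Gsn. Atp6v0d1, a subunit of the proton pump, stood at 38.5 against 168 CPM.

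Among days 6 to 12, 238 of 3107 genes compared were at least 4-fold higher than in uninjured tuft cells (7.66%) and 5 lower (0.161%), with a median ratio of 1.05 over all. Intervals lay above 1 for 511 genes and below 1 for 338. The 8 highest were S100a8, S100a9, Retnlg, Lcn2, Areg, Cxcl2, Wfdc17 and Srgn, most of them known from neutrophils or other myeloid cells. The neutrophil markers include S100a8, S100a9 and Retnlg. Summed, they stood at 3919, 86261, 21623 and 2461 CPM in tuft cells of days 6, 7, 9 and 12, and at 0 in uninjured ones. Other epithelial cells of those days had 2664, 11490, 7198 and 5016 CPM. Each of the 7 neutrophil markers was compared through its DSS UMIs alone. Without mixed barcodes the sum was 827 CPM on day 7 and 1533 CPM on day 9, and 20 of 1182 genes were at least 4-fold higher. Their part in the remaining differences was not tested.

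Areg, the growth factor amphiregulin, had 213 UMIs against 1, but 77.0% of them lay in 1 barcode. Nfkbia, the NF-kB inhibitor induced by that pathway, stood at 587 CPM on days 6 to 12 and 80.5 CPM in uninjured tuft cells, a ratio of 7.29 (4.0 to 14.8) that was 3.28 without mixed barcodes. It had 11 UMIs in uninjured cells and was compared through its DSS UMIs, in cells where neutrophil UMIs also stood high. Ptgs2 had 39 UMIs against 0 in uninjured cells, a ratio of 4.14 against 3 UMIs, and of 2.79 without mixed barcodes.

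Crisp3 led the genes that were lower on days 6 to 12. This cysteine-rich secretory protein gene, one of the 25 highest of tuft cells, stood at 571 CPM in Il10-/- tuft cells and 731.5 CPM in uninjured ones. It stood at 361, 20.7, 273 and 0 CPM on days 6, 7, 9 and 12. On days 16, 18, 19 and 23 it stood at 336, 0, 361 and 545 CPM. As summed, each inflamed library lay below the uninjured one. Of the 16 uninjured cells 9 had a UMI, and the highest of them held 32% of the 100 UMIs. The highest Il10-/- cell held 33.7% of the Crisp3 UMIs there. Whether the Il10-/- level stays below the uninjured one without the highest uninjured cell was not tested. The pool of days 6 to 12 had 116 CPM, 0.16 of the uninjured level (0.11 to 0.23), with 50 against 100 UMIs. It was 0.14 without mixed barcodes and 0.33 without day 7, the batch C library of this pool, where it was no longer 4-fold lower.

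Mlip, also among the 25 highest, was 0.22 of the uninjured level in that pool, 0.26 without day 7 and 0.29 without mixed barcodes. Dock11, a guanine exchange factor of immune cells, was 0.18 of it, 0.34 without day 7 and 0.31 without mixed barcodes. Neither was 4-fold lower in these alternatives. The remaining genes of the 8 lowest were Igkc, Hsbp1l1, Kcnn4, Gnai1 and Gadd45g. Of 6 identity genes none was 4-fold lower, with a median ratio of 0.64, and of 16 immune surface genes none, with a median of 0.80. Rgs13 stood at 600.5 CPM on days 6 to 12 and 1390 CPM in uninjured tuft cells (ratio 0.43, 0.36 to 0.52). Without mixed barcodes its ratio was 0.61 and that of Ltc4s 0.90 in place of 0.58.

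Cdkn1c stood higher in later tuft cells as a group than in uninjured ones. It codes for p57, an inhibitor of cyclin-dependent kinases that is expressed from the maternal allele. It stood at 346 CPM in Il10-/- tuft cells, where 1 cell held 63.0% of the UMIs, and at 87.8 CPM in uninjured ones. It stood at 297, 847, 4598 and 169 CPM on days 6, 7, 9 and 12. On days 16, 18, 19 and 23 it stood at 915, 240, 2175 and 3554 CPM. As summed, each inflamed library was above the uninjured one, and days 9, 19 and 23 were highest. Day 12 rests on 9 UMIs, beside 12 in uninjured cells. The median cell had 0 CPM in uninjured, day 6, day 12 and Il10-/- tuft cells alike. On day 9, 85.9% of the UMIs lay in 1 of 3 cells, a mixed barcode with colonocyte markers. Without mixed barcodes the highest were days 23, 19 and 7, at 4101, 2447 and 2244 CPM, day 9 stood at 2012 CPM in 1 cell, and each inflamed library was still above the uninjured one.

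The pool of days 16 to 23 had 2100 CPM of Cdkn1c (1788 UMIs in 69 of 77 cells) and uninjured tuft cells 87.8 CPM (12 UMIs), a ratio of 23.9 (13.7 to 46.4). The highest cell held 15.4% of the UMIs, and the ratio was 28.1 without mixed barcodes and 28.5 without batch C. Other epithelial cells had 6.95 CPM in that pool and 5.46 CPM in uninjured mice. Single cells overlapped between the groups. The highest uninjured cell had 1364 CPM, but a depth of only 740 UMIs, and the next had 493 CPM. Medians were 0 CPM in uninjured cells and 196, 237, 747 and 1592 CPM on days 16, 18, 19 and 23. Of the 77 cells, 8 had no UMI. Depth also matters on day 19, where the highest cell, at 17744 CPM, had 792 UMIs. The highest cell of day 23 had 28468 CPM. The trend with day was not past the threshold. The slope within tuft cells was 1.48 ± 0.96 (log2 per 10 days, ± SE, 7 libraries) with an adjusted p of 0.999 by edgeR, and the difference from the slope of other epithelial cells was 0.96 ± 1.1 with an adjusted p of 1.

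**Figure D5:**
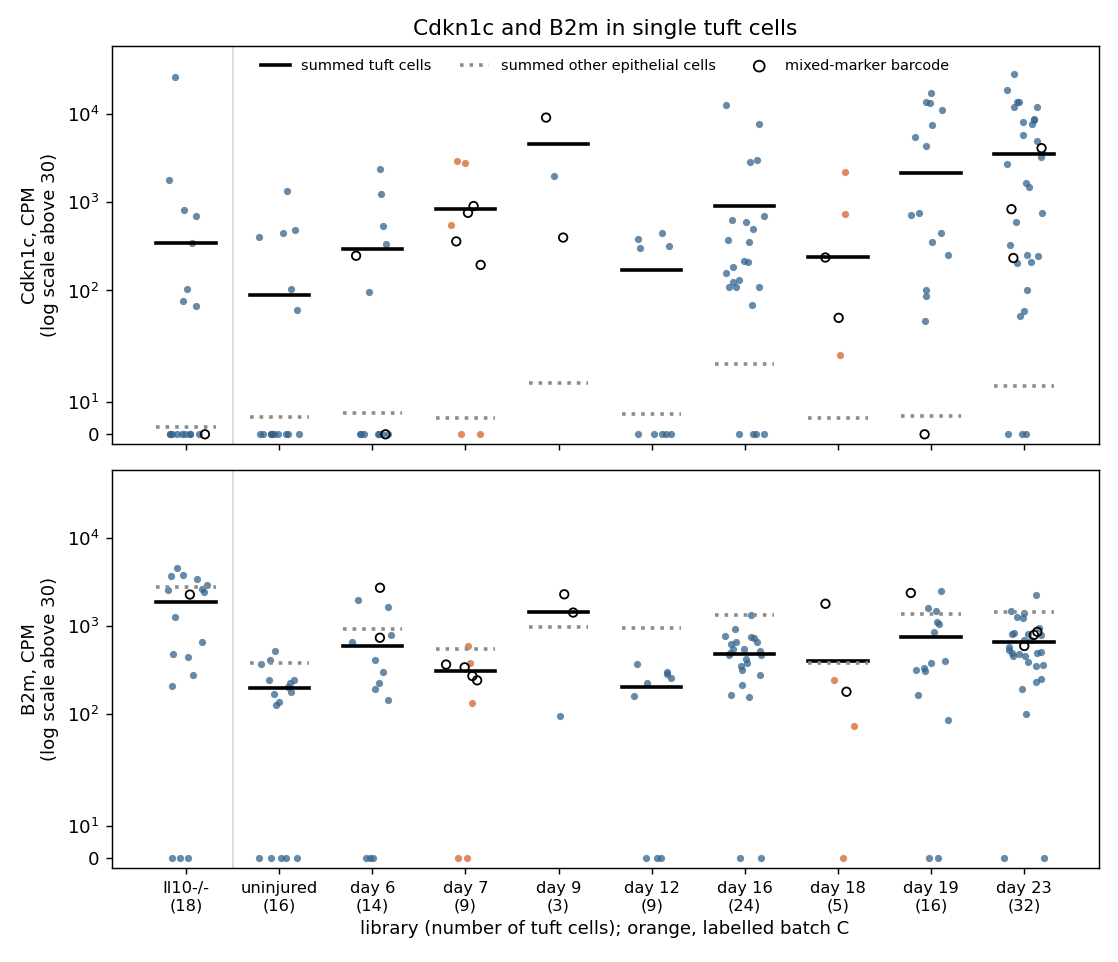
Cdkn1c (top) and B2m (bottom) in single tuft cells by library, in CPM on a scale that is logarithmic above 30 CPM, with black bars for the summed tuft cells, dotted bars for the summed other epithelial cells and open points for mixed barcodes. Cdkn1c cells of days 19 and 23 reach far above the uninjured ones while the dotted bars stay under 22 CPM, and the B2m bar of Il10-/- tuft cells, 1885 CPM, is the highest.

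In all, 167 of 5140 genes compared were at least 4-fold higher on days 16 to 23 than in uninjured tuft cells (3.25%) and none lower (0%), with a median ratio of 1.03. Without mixed barcodes 88 of 4169 genes were at least 4-fold higher. Intervals lay above 1 for 342 genes and below 1 for 282. The 8 highest were Gsdmc4, Cdkn1c, S100a9, S100a8, Dmbt1, Gsdmc2, Cyp2c55 and Slc5a8. Dmbt1, a secreted mucosal defence protein, stood at 1139 against 73.1 CPM (ratio 15.6, 8.43 to 32.6) and was 10.4-fold higher without mixed barcodes. Gsdmc4, a gasdermin gene of the colonic epithelium, was 36.9-fold higher (6.56 to 1465) with 230 UMIs against 1, and 8.23-fold without mixed barcodes. Cyp2c55, on the colonocyte list, was 14.1-fold higher (2.47 to 564) and 2.06-fold without them. S100a9 had 0 UMIs in uninjured cells and a ratio of 21.8 against 3 UMIs (lower limit 17.7), with 80.1% of its UMIs in 1 cell. Without mixed barcodes its ratio was 5.14. In this pool 4 mixed barcodes carry colonocyte markers, whose part was not tested.

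The 8 lowest genes of days 16 to 23 were Nkd1, Sord, Adam22, Ctsc, Cuedc2, Foxp4, Lmbr1 and Gimap1. Nkd1, an inhibitor of the Wnt pathway, stood at 27.0 against 102 CPM (ratio 0.26, 0.13 to 0.55). Tuft lists stayed near the uninjured level, with none of 7 identity genes, 10 taste-type genes, 8 eicosanoid genes and 16 immune surface genes at least 4-fold higher or lower. Their median ratios were 0.66, 1.11, 0.84 and 0.92. B2m was 2.96-fold higher (2.01 to 4.54). Il25 stood at 58.7 against 29.3 CPM, a ratio whose interval of 0.74 to 7.65 includes no difference.

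Il25 had few UMIs in each library. It had 5 UMIs in Il10-/- tuft cells (32.1 CPM) and 4 in uninjured ones (29.3 CPM). It had 1, 2, 0 and 0 on days 6, 7, 9 and 12. It had 8, 3, 4 and 35 on days 16, 18, 19 and 23, and counts this low allow up to 3 UMIs where none was seen. Day 23 was highest at 97.3 CPM.

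The day after DSS was tested within tuft cells over 7 libraries with at least 5 tuft cells (days 6, 7, 12, 16, 18, 19 and 23). Counts summed a library were fitted with edgeR's quasi-likelihood test with day and batch label as terms, which leaves 4 residual degrees of freedom. Of 2799 genes tested, 1 rose (0.0357%) and 7 fell (0.25%) at a Benjamini-Hochberg adjusted p under 0.05, which is 0.286% of genes called. Among 85 members of the tuft lists, 52 were tested and none was called by edgeR or DESeq2, and none had an unadjusted p under 0.05 by either. Their median slope was -0.11, beside -0.00068 over all genes. At 4 degrees of freedom this does not show that the tuft genes held their level.

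Gstm1, a glutathione transferase, was the gene that rose. Its level was 21.2, 24.8, 18.8, 79.4, 200.02, 133 and 197 CPM on days 6, 7, 12, 16, 18, 19 and 23. The 4 later libraries lay above the 3 earlier ones and above the 58.5 CPM of uninjured tuft cells. These levels rest on 2, 6 and 1 UMIs on days 6, 7 and 12, and on 8 in uninjured cells. The later ones rest on 17, 30, 17 and 71 UMIs. Single cells held 47.1% of those of day 16 and 52.9% of those of day 19. Without that cell day 16 stood at 47.3 CPM, below the uninjured level. Other epithelial cells were also higher on the 4 later days. They had 40.1, 10.2 and 46.8 CPM on days 6, 7 and 12 and 81.1, 157, 90.4 and 129 CPM on days 16, 18, 19 and 23. The slope difference was 0.60 ± 0.44 (adjusted p = 1 by edgeR). Its slope was 2.23 ± 0.35 log2 per 10 days (adjusted p = 0.00820 by edgeR, 0.0282 by DESeq2). It was not called without mixed barcodes (1.91, adjusted p = 0.359), without day 7 (adjusted p = 1) or without day 18 (adjusted p = 0.0679).

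The 7 genes that fell were Wfdc21, S100a8, S100a9, Hp, Wfdc17, Hdc and Cxcl2, all of them known from neutrophils or other myeloid cells. S100a9, a subunit of calprotectin, stood at 1753, 39080 and 657.6 CPM on days 6, 7 and 12. It stood at 187, 2220, 94.2 and 63.9 CPM on days 16, 18, 19 and 23. Its slope was -3.28 ± 0.32 (adjusted p = 0.000146 by edgeR) and -2.72 without mixed barcodes (adjusted p = 0.000745). Cxcl2, a chemokine that draws neutrophils, had a slope of -1.97 ± 0.24 (adjusted p = 0.00137), and of -2.08 without mixed barcodes (adjusted p = 0.0184). The neutrophil list includes S100a8 and S100a9, with 9677 and 9459 of its 20879 UMIs in tuft cells of day 7. Its sum therefore moves with these genes by construction. The sum was also lower on later days in other epithelial cells, and the part of neutrophil RNA was not tested. Without day 7, the library with most of these UMIs, edgeR called 0 genes, with 36 at an unadjusted p under 0.05, and without day 18 it called 1.

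The slope of tuft cells was then compared with that of the other epithelial cells in one fit with library as a block. Of 8644 genes, 27 differed upwards (0.312%) and 6 downwards (0.0694%) at an adjusted p under 0.05 by edgeR, 0.382% in all. DESeq2 called none, with 208 at an unadjusted p under 0.05. Of 65 tuft list members tested, 1 was called, the eicosanoid gene Alox5ap, and 7 had an unadjusted p under 0.05. The upward genes included Cxcl13, Ccl11, Mmp2, Lum and Cxcl12, which fibroblasts are known to express and which were chosen after their values were seen. Of 6 genes tested of the fibroblast list, 1 was called. For Cxcl13, all 59 of its day 18 UMIs lay in 1 barcode, the one with fibroblast and neutrophil markers. All 33, 16 and 13 day 18 UMIs of Ccl11, Mmp2 and Cxcl12 also lay in 1 barcode each, as did 92.3% of the 26 of Lum. Most of the 27 upward genes had at least 81.8% of their day 18 UMIs in 1 barcode, so their count is not read as a change of tuft cells. Without mixed barcodes 7 genes were called, 1 of them shared with the 33. Without day 7 none was called, with 158 at an unadjusted p under 0.05, and without day 18 there were 8.

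Alox5ap was that shared gene. In tuft cells it stood at 414, 1256 and 564 CPM on days 6, 7 and 12, and at 845, 507, 832 and 642 CPM on days 16, 18, 19 and 23. In other epithelial cells it stood at 32.5, 101 and 27.1 CPM on days 6, 7 and 12, and at 9.12, 21.8, 8.18 and 4.57 CPM on days 16, 18, 19 and 23. The low level outside tuft cells was lower on the later days within each batch label, while tuft cells showed no order by day. The slope difference was 1.92 ± 0.33 log2 per 10 days (adjusted p = 0.000581 by edgeR). It was 2.24 ± 0.30 without mixed barcodes and 2.31 ± 0.39 without batch C (adjusted p = 0.00390). The slope within tuft cells was -0.09 ± 0.35. Without day 7 the difference was 2.10 ± 0.51 with an adjusted p of 1, and by DESeq2 1.90 ± 0.44 with an adjusted p of 0.0735. Neutrophil markers in the other epithelial cells were also lower on later days, and their part was not tested.

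Kit, the stem cell factor receptor, differed downwards by 2.05 ± 0.47 on the log2 scale per 10 days (adjusted p = 0.0171 by edgeR). In tuft cells it stood at 106, 66.1 and 169 CPM on days 6, 7 and 12 and at 224, 33.3, 86.4 and 108 CPM on days 16, 18, 19 and 23. The slope within tuft cells was -0.39 and was not called. In other epithelial cells Kit was low, at 1.52, 2.30 and 2.55 CPM on days 6, 7 and 12. It stood there at 5.92, 10.7, 3.87 and 9.42 CPM on days 16, 18, 19 and 23. The difference was -1.79 without mixed barcodes (adjusted p = 0.241), -1.80 without day 7 (adjusted p = 1) and -2.05 with DESeq2 (adjusted p = 0.54), near the size in all libraries but not called. Without day 18 it was -0.87 (adjusted p = 0.926).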

How the data were processed

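The deposited values are UMI counts, whole numbers for each gene in each cell. The submitters' processing notes name Cell Ranger 3.0.0 and the build mm10. A 3' method counts transcript ends. The authors' cell table gave each cell's library, storage, number of mice and type, and how cells were filtered or doublets treated is not given in the sources used here. No doublet caller was run. The table describes 68224 cells. Of these, 12621 cells of 3 libraries matched no sample and were not used. Another 597 rows with a placeholder in place of a gene (0.445 to 0.577% of UMIs a library) were left out, which left 29809 genes.

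Counts were summed per library over tuft and over other epithelial cells. Levels are CPM of those sums. The day fits used edgeR 4.0.16 (quasi-likelihood, TMM scaling, filterByExpr) in R 4.3.3 on libraries with at least 5 tuft cells, with day in units of 10 days and the batch label as terms, and were tested on simulated data. For the day trend this recovered 94.9% of slopes of 2 and 32.7% of slopes of 1, with 4 false of 129 calls over 2646 genes. For the slope difference it recovered 56% and 13.4%, with 10 false of 79 calls over 8187 genes. DESeq2 1.42.0 was an alternative. Share trends used exact permutation (scipy 1.17.1). Ratios between pools carry exact conditional Poisson intervals and shares exact binomial (Clopper-Pearson) ones, at 95%. PCR and capture error is not in them.

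Named genes were any member of the tuft lists, the 25 highest by ratio with at least 50 CPM in tuft cells and detection in at least 25% of them, the 10 lowest with at least 500 CPM in other epithelial cells, the 8 highest and 8 lowest of each pool found in at least 10% of the pair's cells, up to 10 each way called by day, up to 5 each way called in the slope difference, and 2 to 4 members of other lists. Alox5ap and the fibroblast genes of the slope difference outside the first 5 were chosen after their values were seen. Members, lists and tests were chosen with earlier results of these data known. Each library pools mice, and p-values measure only the spread between these libraries. Where genes overlap, reads cannot be assigned here. The rule for mixed barcodes and the alternatives that use it were added after the data were seen.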

Additional observations from a re-analysis of the deposited data

Results flagged for a closer look

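Named genes whose day slope in tuft cells differed from that in other epithelial cells, by edgeR's test of that difference, had these values in log2 per 10 days, tuft minus other epithelial. Upwards they were Cxcl13 10.48, Serpina3n 7.25, Ccl11 7.2, Svep1 7.01 and Aqp8 6.91. Downwards they were Wfdc21 -3.03, Smpx -3.02, Kit -2.05, B3galt2 -2.02 and Hp -1.94. For Serpina3n and Ccl11 all 47 and 33 UMIs of day 18 lay in 1 barcode, and Svep1 had 81.8% of its 11 there. None of the 10 was called by DESeq2, none of the 8 tested without day 7, and none of the 5 tested without mixed barcodes, which are the 5 downward genes.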

How the results depend on the processing

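Tuft share against day kept a weak positive rho except without days 19 and 23 (-0.107), and leaving out 1 library gave 0.0476 to 0.524. No paired analysis was possible because each group of mice has 1 library. The slope difference paired tuft and other epithelial cells by library. Against other epithelial cells, genes at least 4-fold higher and lower numbered 121 and 167 in tuft cells with at most 2 goblet and colonocyte UMIs, 236 and 66 in batch C, and 539 were lower without mixed barcodes. For days 6 to 12 over uninjured, higher and lower genes numbered 69 and 2 without batch C and 20 and 3 without mixed barcodes. A minimum of 10 UMIs gave 21 lower, and 40 UMIs gave 154 higher. For days 16 to 23, 10 UMIs gave 15 lower, 40 UMIs gave 86 higher, and leaving out mixed barcodes gave 88 higher. For Il10-/-, 10 UMIs gave 64 and 31, and 40 UMIs gave 8 and 0. The day trend called 93 genes with no filter on low counts, 0 without the batch term (70 at an unadjusted p under 0.05), 2 without batch C, 5 with at least 10 tuft cells a library and 4 without mixed barcodes. Leaving out 1 library gave 0 to 20, with 0 without day 7, 1 without day 18, 15 without day 19 and 20 without day 6. The slope difference called 0 by DESeq2, 78 with no filter, 7 without mixed barcodes and 1 without batch C. Leaving out 1 library gave 0 to 163, with 0 without day 7, 8 without day 18 and 163 without day 6. The causes were not tested. Alternatives on mixed barcodes, the 2 farthest days and the slope difference without batch C were chosen after seeing the data. Tuft depth limits the rest, since 3 to 32 cells a library cannot show small changes.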

Other observations

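The summed interferon response list stood at 1094 CPM in the 3 tuft cells of day 9, 2 of them mixed barcodes (192 CPM in the third). It stood at 423 CPM in Il10-/- tuft cells, 409 CPM on day 7 and 80.5 CPM in uninjured ones. Without mixed barcodes day 7 stood at 449 CPM and Il10-/- at 428 CPM. Other epithelial cells had 1171 CPM in Il10-/- and 161 CPM in uninjured mice. The immediate early and heat shock list stood at 10034 CPM in the 5 tuft cells of day 18, 2 of them mixed barcodes (11037 CPM in the other 3), and at 3094 to 6214 CPM in the other libraries.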
